A study of Mus musculus with 6 samples.

Results

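The response of wild-type (WT) mouse macrophages to 12 h with lipopolysaccharide (LPS, a component of the outer membrane of Gram-negative bacteria) was read from a pair of RNA sequencing libraries, WT at 12 h and WT at 0 h. They belong to a series of 6 libraries of macrophages grown from bone marrow, with WT and Setd2 KO cells sampled once each at 0, 12 and 24 h. The cells came from the marrow of C57BL/6 mice aged 8 weeks and were grown with the growth factor M-CSF for 5 days, which both compared groups share; LPS was given at 100 ng/ml to the 12 h group and the 0 h group had no time with it. Sequencing was done on the BGISEQ-500 platform, and no label tells if the same animal, culture or run gave several libraries, or if marrow was pooled. Lipid metabolism and the resolution of inflammation are the subject given in its title. Expression was given as FPKM, the number of fragments of a gene corrected for transcript length and for the mapped total of the library. Of the 17904 genes of the table, 11126 reached 1 FPKM in at least 1 library of the pair, and these were described. For each, the difference of log2(FPKM + 1), 12 h minus 0 h, was taken. A gene was counted as higher or lower at a difference of at least 1 in size, which is 2-fold on that scale and understates the fold of weakly expressed genes. With 1 library a side there was no replicate error and no test, so every value below is a size measured between these libraries.

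In the libraries, the estimated depth was 21650000 mapped reads at 12 h and 21750000 at 0 h, if reads were 50 nt long, so that 1 FPKM of a transcript of 2000 nt stood for about 42.2 reads at 12 h and 42.4 at 0 h. Such numbers limit only the counting error. At the threshold, 98 described genes had a larger value from 1 to under 1.1 FPKM, and 140 genes with a larger value from 0.9 to under 1 FPKM were left out. The macrophage label was checked against marker genes. All 8 macrophage markers were measured in both libraries: Csf1r, the M-CSF receptor, stood at 573 FPKM at 12 h and 496 FPKM at 0 h, Adgre1 (F4/80) at 669 and 292.0 FPKM, Cd68 at 894 and 1353 FPKM, and Lyz2, lysozyme, at 3903 and 5502 FPKM. Every marker with a row of T cells, NK cells, mast cells and basophils and erythroid cells was under 1 FPKM in both, as were 7 of 8 dendritic cell markers; the exception, Bst2, is also an interferon-induced gene. Neutrophil markers summed to 89.4 FPKM at 12 h and 91.6 FPKM at 0 h, most of it S100a8 (56.8 and 34.8 FPKM) and S100a9 (21.5 and 34.2 FPKM). Of 8 measured neutrophil markers 0 were higher and 4 lower (Ltf, Mpo, Ngp and Elane, by -1.38 to -1.07), with a median of -0.86; their part in any result was not tested. The 5 endothelial markers summed to 14.9 FPKM at 12 h and 3.49 FPKM at 0 h. Of them, Kdr (10.9 and 2.67 FPKM) and Pecam1 (3.17 and 0.70 FPKM) were higher at 12 h. The other 3 were under 1 FPKM in both: Cdh5, Tek at 0.01 FPKM and Emcn, listed at 0. The part of these markers in any result was not tested either. Of the B cell markers only Cd79b reached 1 FPKM (0.88 and 3.52 FPKM), and of 6 stromal markers the collagen genes Col1a1 and Col1a2 and Dcn did, at 1.31 to 3.85 FPKM at 12 h.

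As background, LPS is bound by CD14 and by the complex of TLR4 with MD-2, which signals through the adaptor MyD88 to the transcription factors NF-kB and AP-1, and through the adaptor TRIF to IRF3 and the gene of interferon beta. Secreted interferon then acts back on the cells through its receptor and JAK kinases, and the factors activated there bind interferon response elements in the promoters of antiviral genes. Macrophages activated in this way stop dividing, shift toward glycolysis and itaconate production, and make cytokines, chemokines, nitric oxide and prostaglandins.

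At 12 h, 1113 genes (10% of the 11126) were higher and 2011 (18.1%) were lower, and these shares are the background for the counts of gene groups below. Large differences were mostly on the higher side: 468 genes differed by 2 or more and 355 by -2 or less, 102 genes by 4 or more and 3 by -4 or less, 58 by 5 or more and 0 by -5 or less. The median over all described genes was -0.31, and the 5th and 95th percentiles were -1.74 and 1.80. Scaling the columns by median of ratios or by a trimmed mean moved the median of all genes to -0.03 and -0.01. Those scalings centre the typical gene near 0 by design, so this move is no check on the median of -0.31. What that median reflects was not tested. The split of called genes became 1478 higher and 1275 lower, or 1510 and 1245, and genes lower by little more than 1 passed under 2-fold. Gene group counts given after median-of-ratios scaling have 1478 and 1275 of 11048 genes as their background. In these bulk samples, fewer cells of a type and less RNA per cell cannot be told apart. Genes that were higher took 23.7% of all FPKM at 12 h and 3.3% at 0 h, and genes that were lower took 15.5% and 36.7%. From under 1 FPKM at 0 h, 62 genes were at 10 FPKM or more at 12 h, while 17 genes showed the opposite.

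**Figure D1:**
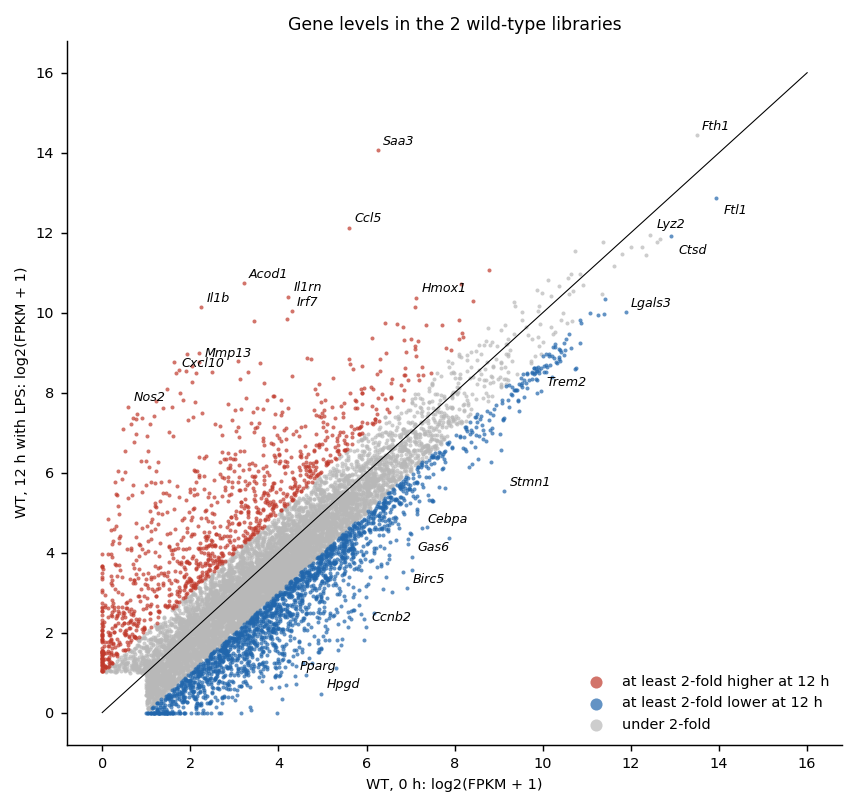
Level of each of the 11126 described genes, as log2(FPKM + 1), in the WT 12 h library (vertical axis) and the WT 0 h library (horizontal axis). The line marks equal levels; red points are the 1113 genes at least 2-fold higher at 12 h, blue points the 2011 at least 2-fold lower and grey points the rest, on the log2(FPKM + 1) scale. The red points reach up to 7.90 above the line (Il1b) and the blue points down to -4.49 below it (Hpgd).

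Genes at 10 FPKM or more in at least 1 library of the pair were ranked by their difference, and the highest was that of Il1b, which encodes the inflammatory cytokine interleukin 1 beta (GRCm38, chr2:129364569-129371164). It stood at 1123 FPKM at 12 h and 3.72 FPKM at 0 h, a difference of 7.90. Next came Saa3, an acute-phase apolipoprotein (chr7:46711998-46719615), at 17094 FPKM at 12 h and 75.3 FPKM at 0 h. It alone took 3.58% of all FPKM at 12 h and 0.01% at 0 h. Acod1, the enzyme that makes itaconate (chr14:103047012-103056573), had 1704 and 8.26 FPKM, and Ptges, a prostaglandin E synthase, 432 and 2.07 FPKM. Nos2, the inducible nitric oxide synthase, had 200 FPKM at 12 h and 0.50 FPKM at 0 h. The rest of the 20 highest were Cfb, Cxcl10, Rsad2, Gbp2, Cxcl3, Fpr2, Oasl1, Ms4a4c, Ifi205, Fpr1, Ifit1, Mmp13, Il1a, Ccl5 and Tarm1, with differences of 6.46 to 7.06. These leading genes span several roles: 5 of the 20 are in the lists of cytokines and chemokines and 4 in the lists of interferon-induced genes.

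At the other end, the 20 lowest were Hpgd, Fam64a, Pcp4l1, Sap25, Ccnb2, Birc5, Cdc20, St6gal1, Spc25, Bmyc, Cdca3, Slc46a3, Ccna2, Ank, Stmn1, Rrm2, Dnph1, Plk1, Hist1h2ap and Cd207. Of these, 6 are in the lists of DNA replication and mitosis. Sap25 was listed at 0 at 12 h and had 14.6 FPKM at 0 h, and the others differed by -4.49 to -3.48. In the WT library at 24 h Sap25 had 8.74 FPKM. In the libraries labelled Setd2 KO it had 1.1 FPKM at 12 h and 1.66 FPKM at 0 h, a difference of -0.34. Fam64a stood at 1.18 FPKM at 12 h and 38.3 FPKM at 0 h, Stmn1, a regulator of microtubules, at 45.2 and 556 FPKM, and St6gal1, a sialyltransferase, at 0.27 and 16.04 FPKM. Hist1h2ap is 1 of many near-identical histone genes, so its count is uncertain.

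By amount of transcript, the 12 h library was led by Fth1, the ferritin heavy chain, at 22197 FPKM against 11502 FPKM at 0 h, a difference of 0.95 that did not reach 2-fold. Its partner Ftl1, the light chain, led the 0 h library and went the other way, with 7475 FPKM at 12 h and 15663 FPKM at 0 h. Ferritin genes have processed pseudogenes, so their counts are uncertain. Next to Saa3 and Fth1, the largest gains in FPKM were those of Ccl5, Ifitm3, Acod1, Prdx5, Il1rn, B2m, Hmox1 and Il1b. Ifitm3, an antiviral membrane protein, had 2144 FPKM at 12 h and 441 FPKM at 0 h, and Prdx5, a peroxiredoxin, had 1690 and 281 FPKM. The largest losses in FPKM were those of Ftl1, Ctsd, Tmsb4x, Lgals3, Apoe, Eef1a1, Gpnmb, Rplp1, Lyz2 and Rpl41. Lgals3, the lectin galectin-3, stood at 1033 FPKM at 12 h and 3767 FPKM at 0 h.

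Among 18 measured genes of LPS sensing, 6 were higher and 0 lower (median 0.53). The receptor itself differed little: Tlr4 stood at 10.2 FPKM at 12 h and 10.8 FPKM at 0 h, and Ly96, which encodes MD-2, at 17.8 and 15.6 FPKM. Cd14, the co-receptor that hands LPS to TLR4, had 1122 FPKM at 12 h and 135 FPKM at 0 h, a difference of 3.04. Irak3, an inhibitory member of the IRAK kinases, differed by 3.34 (80.4 and 7.05 FPKM), and the kinase gene Ikbke by 2.84 (105 and 13.7 FPKM). The adaptors Myd88 and Ticam1 (TRIF) differed by 1.33 and 1.04. Of 10 other genes of Toll-like receptors and their cofactors, 4 were higher and 0 lower: Tlr1, Tlr2, Tlr3 and Tlr6 differed by 2.40, 2.12, 1.75 and 1.07. Tlr7, Tlr8, Tlr9 and Tlr13 were under 2-fold, from -0.69 to 0.71.

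All 14 genes of NF-kB subunits, IkB proteins and their kinases were measured, and 8 were higher and 0 lower (median 1.22). Nfkbia, which encodes IkB alpha and restrains NF-kB, stood at 275 FPKM at 12 h and 60.6 FPKM at 0 h, a difference of 2.16. Nfkbie, another IkB, differed by 2.79, the subunit genes Nfkb2 and Relb of the non-canonical pathway by 2.62 and 1.80, and Bcl3, a nuclear IkB, by 2.5. The canonical subunit genes Rela and Nfkb1 differed by 0.35 and 0.82, and the kinase genes Chuk, Ikbkb and Ikbkg by 0.34 to 0.40. NF-kB binds short GC-rich sites, and a simplified form of such a site, GGGA and CC with 4 bases between them on either strand, was searched in RefSeq promoter windows of GRCm38.p6, which run from 250 bases before to 50 bases after a gene's start and were available for 8869 of the 11126 described genes. It was in 20.7% of all 32851 windows of the table, in 27.8% of windows of higher genes, 26.5% of those of lower genes and 25.9% of those under 2-fold, so the higher genes as a whole held it about as often as the others. In the CXC chemokine list 5 of 6 windows (83.3%) held it and in the list of NF-kB and IkB genes 9 of 17 (52.9%), but in CC chemokines, which were also higher, 1 of 7 (14.3%). Lists that were lower held it as well: 11 of 25 windows (44%) of mitosis genes and 13 of 31 (41.9%) of cytosolic ribosomal proteins. The windows of Nfkbia (chr12:55492598-55492897, minus strand) and of Cxcl10 (chr5:92348840-92349139, minus strand), a chemokine gene described below, are shown 5′ to 3′ on the gene's strand because each holds the motif at more than 1 place. Capitals mark matches to this motif and, at the first capitals of Cxcl10, to the interferon response motif described below. A match is a description of the sequence and not evidence of binding.
Nfkbia: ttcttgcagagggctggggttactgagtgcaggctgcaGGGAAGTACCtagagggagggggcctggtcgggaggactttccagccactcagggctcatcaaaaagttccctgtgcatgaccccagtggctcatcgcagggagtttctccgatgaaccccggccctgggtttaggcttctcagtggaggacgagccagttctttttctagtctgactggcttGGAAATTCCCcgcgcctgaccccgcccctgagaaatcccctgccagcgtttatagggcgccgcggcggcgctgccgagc
Cxcl10: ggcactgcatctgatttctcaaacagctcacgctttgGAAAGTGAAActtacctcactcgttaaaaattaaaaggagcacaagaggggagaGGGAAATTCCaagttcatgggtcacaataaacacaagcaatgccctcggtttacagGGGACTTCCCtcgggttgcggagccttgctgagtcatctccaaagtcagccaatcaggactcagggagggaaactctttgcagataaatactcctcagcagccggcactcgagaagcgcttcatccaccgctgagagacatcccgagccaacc

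Inflammatory cytokines were higher in 17 of 18 measured cases and lower in 0 (median 2.08). Of the 24 listed, 5 were under 1 FPKM in both libraries and 1 had no row. In 9 of the 18 the 0 h level was under 1 FPKM. Such genes were measured only through their 12 h level and could not be counted as lower. After Il1b, the highest levels at 12 h were those of Il1a, at 160 FPKM at 12 h and 0.71 FPKM at 0 h, of Ebi3, a subunit of cytokines of the interleukin 12 family, at 131 and 33.0 FPKM, and of Tnf, tumour necrosis factor, at 118 and 7.58 FPKM. Inhba, a subunit of activin A, differed by 4.35, and Il12b, a subunit of interleukin 12, by 4.02 (20.4 and 0.32 FPKM). Il6 at 9.55 FPKM and Csf3 (G-CSF) at 14.6 FPKM at 12 h were listed at 0 in the 0 h library. The measured exception was Tnfsf13b (BAFF), at 1.17 and 1.08 FPKM. Ifnb1, the interferon beta gene, was under the threshold, at 0.70 FPKM at 12 h and 0 at 0 h.

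Chemokines followed the cytokines. Of 11 measured CC chemokines 10 were higher and 0 lower (median 2.63), and of 9 CXC chemokines 8 were higher and 1 lower (median 3.38). In 5 of the 9 CXC genes the 0 h level was under 1 FPKM, so these could not be counted as lower. The same holds for any CC gene under that level at 0 h. Ccl5 (RANTES) stood at 4462 FPKM at 12 h and 47.5 FPKM at 0 h, more FPKM at 12 h than any other chemokine listed. Ccl2 and Ccl7, which attract monocytes, had 300.1 and 91.8 FPKM at 12 h against 11.7 and 1.06 FPKM at 0 h. Ccl22 had 190 and 7.02 FPKM, and the related Ccl3 and Ccl4 differed by 2.63 and 2.60. Ccl6 differed by 0.10. Of the neutrophil attractants, Cxcl3 differed by 6.67 (164 and 0.62 FPKM), Cxcl2 by 6.15 (149 and 1.11 FPKM) and Cxcl1 by 3.77 (14.7 and 0.15 FPKM). The T cell attractants Cxcl10, Cxcl9 and Cxcl11 differed by 6.82, 3.38 and 2.59. Cxcl14 was the 1 CXC gene that was lower, at 1.06 FPKM at 12 h and 11.1 FPKM at 0 h.

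Receptors for attractants split. Of 15 measured, 8 were higher and 4 lower. The formyl peptide receptors Fpr2 and Fpr1 had 174 and 135 FPKM at 12 h against 0.74 and 0.39 FPKM at 0 h. Ccr7, the lymph node homing receptor, differed by 3.42 and Ccr1 by 2.43. On the lower side were Cxcr4 (19.4 FPKM at 12 h and 122 FPKM at 0 h), the fractalkine receptor Cx3cr1 (11.0 and 51.3 FPKM), C5ar2 and the monocyte receptor Ccr2 (9.43 and 22.6 FPKM). The difference of Ccr2 was -1.18, and -0.88 after median-of-ratios scaling.

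Many promoters of interferon-induced genes held a shared sequence element. The core of interferon response elements, searched as GAAA and GAAA with 2 bases between them on either strand, was in 3.44% of all 32851 windows, in 10.7% of windows of higher genes, in 2.98% of those of lower genes and in 2.5% of those under 2-fold. Among genes with a difference of 4 or more, 28.7% of 94 windows held it. It was in 10 of 11 windows (90.9%) of the GTPase list, in 10 of 15 (66.7%) of the IFIT and OAS list and in 9 of 26 (34.6%) of the list of antiviral restriction and ISG15. Of cytokine windows 1 of 20 (5%) held it, of CC chemokine windows 0 of 7 and of CXC chemokine windows 2 of 6 (33.3%). Among lists that were lower, it was in 5 of 31 windows (16.1%) of cytosolic ribosomal proteins, 1 of 25 (4%) of mitosis genes and 0 of 33 of replication genes. Windows are shown for Ifit1 (chr19:34640639-34640938, plus strand), Isg15 (chr4:156200769-156201068, minus strand) and Gbp2 (chr3:142620413-142620712, plus strand), 3 of the most strongly differing genes of the 3 lists, 5′ to 3′ on the gene's strand. Capitals mark matches to this motif (on the opposite strand in Ifit1 and Gbp2) and, in the last capitals of Gbp2, to the NF-kB type motif. In Ifit1 a pair of matches begins 104 and 85 bases before the start, and in Isg15 3 overlapping matches begin 78, 72 and 66 bases before it.
Ifit1: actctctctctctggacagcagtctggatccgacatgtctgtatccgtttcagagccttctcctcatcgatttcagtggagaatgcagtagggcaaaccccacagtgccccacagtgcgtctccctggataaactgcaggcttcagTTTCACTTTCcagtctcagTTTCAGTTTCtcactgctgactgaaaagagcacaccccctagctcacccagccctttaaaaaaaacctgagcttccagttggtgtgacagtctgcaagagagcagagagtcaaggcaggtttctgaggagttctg
Isg15: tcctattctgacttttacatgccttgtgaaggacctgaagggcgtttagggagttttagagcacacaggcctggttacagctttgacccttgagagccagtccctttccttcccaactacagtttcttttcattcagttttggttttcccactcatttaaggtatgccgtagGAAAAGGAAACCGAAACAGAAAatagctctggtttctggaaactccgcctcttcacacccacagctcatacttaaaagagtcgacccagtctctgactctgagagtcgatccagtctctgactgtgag
Gbp2: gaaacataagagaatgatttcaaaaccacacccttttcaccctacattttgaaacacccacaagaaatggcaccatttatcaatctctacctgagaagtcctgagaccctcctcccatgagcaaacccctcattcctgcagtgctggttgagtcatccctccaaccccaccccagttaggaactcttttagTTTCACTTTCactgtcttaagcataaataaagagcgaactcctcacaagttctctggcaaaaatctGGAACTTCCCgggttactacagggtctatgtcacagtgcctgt

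**Figure D2:**
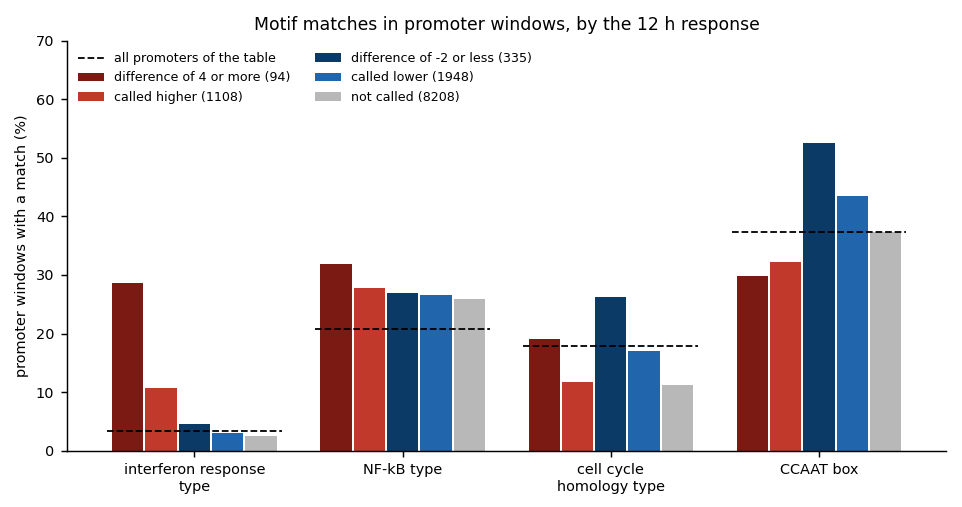
Share of RefSeq promoter windows (250 bases before to 50 bases after the start) with a match to each of 4 motifs, in percent, for genes grouped by their difference between WT 12 h and WT 0 h. Bars give genes with a difference of 4 or more, higher genes, genes with a difference of -2 or less, lower genes and genes under 2-fold, with the number of windows in the legend, and dashed lines the share among all 32851 windows. The interferon response motif stands at 28.7% in genes with a difference of 4 or more and at 2.5% in genes under 2-fold.

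Nearly all measured members of the 3 lists of interferon-induced genes were higher. Of 16 measured interferon-induced GTPases 15 were higher and 0 lower, with a median of 4.46; of 14 measured IFIT and OAS genes 13 were higher and 0 lower, with a median of 4.04; and of 26 genes of antiviral restriction and ISG15 conjugation 24 were higher and 1 lower, with a median of 3.23. Gbp2, a guanylate-binding GTPase, stood at 510 FPKM at 12 h and 3.61 FPKM at 0 h, and Mx1, a dynamin-like antiviral GTPase, at 196 and 1.61 FPKM. Irgm1, a regulator of the immunity-related GTPases, had 171 FPKM at 12 h against 15.7 FPKM at 0 h. In 9 of the 16 GTPase genes, against 2 of the 14 IFIT and OAS genes, the 0 h level was under 1 FPKM. Those genes could not be counted as lower. Ifit1, Ifit2 and Ifit3, which bind viral RNA or each other, differed by 6.57, 6.23 and 6.38. Of the oligoadenylate synthetases, Oas1a had 249 FPKM at 12 h and 28.4 FPKM at 0 h, and Oas2 and Oas3 differed by 3.47 and 3.43; the related Oasl1 differed by 6.63. Many of these genes have close copies in the genome (such as Ifit3 and Ifit3b, Oas1a and Oas1g, Tgtp1 and Tgtp2), and how their reads were shared is uncertain.

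Of the ISG15 system, the modifier Isg15 stood at 886 FPKM at 12 h and 9.86 FPKM at 0 h, its E1 enzyme Uba7 at 121 and 14.6 FPKM, its E2 enzyme Ube2l6 at 166 and 30.0 FPKM, and the deconjugating protease Usp18 at 159 and 2.85 FPKM. The RNA sensors Ddx58 (RIG-I), Ifih1 (MDA5) and Dhx58 (LGP2) differed by 4.05, 3.32 and 3.56. Of 2 genes of DNA sensing in the list, Mb21d1 (cGAS) differed by 0.14, and Tmem173 (STING) was the 1 lower gene of the list, at 7.20 FPKM at 12 h and 18.4 FPKM at 0 h. Its difference was -1.24, and -0.95 after median-of-ratios scaling. Zbp1, a sensor of Z-form nucleic acid, stood at 224 and 2.56 FPKM.

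Among 20 measured interferon regulatory factors, JAK kinases, STATs and interferon receptors, 8 were higher and 1 lower, or 12 and 0 after median-of-ratios scaling. Irf7, a factor that amplifies type I interferon, stood at 1054 FPKM at 12 h and 18.7 FPKM at 0 h, a difference of 5.75. Irf3, which is activated without new synthesis, stood at 18.5 and 25.3 FPKM. The receptor chain Ifnar1 differed by 1.32, and Ifngr1, a chain of the interferon gamma receptor, was lower at 27.9 FPKM at 12 h and 69.3 FPKM at 0 h (-1.28, and -0.98 after that scaling).

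Feedback inhibitors were higher in 21 of 26 measured cases and lower in 2 (median 1.86). Socs3, an inhibitor of cytokine receptor signalling, stood at 254 FPKM at 12 h and 2.39 FPKM at 0 h, and Il1rn, the interleukin 1 receptor antagonist, at 1351 and 17.7 FPKM. In FPKM, Il1rn was thus above its agonist Il1b at 12 h. Tnfaip3 (A20), which removes ubiquitin from NF-kB signalling proteins, differed by 3.71, Dusp1, a MAP kinase phosphatase, by 3.21, and Zfp36, which promotes decay of cytokine mRNA, by 1.87 (194 and 52.4 FPKM). The immune checkpoint ligand Cd274 (PD-L1) had 191 and 7.86 FPKM. Il10 was weakly expressed, at 4.59 FPKM at 12 h and 1.13 FPKM at 0 h. Tsc22d3 (GILZ) and Otulin were lower, by -1.66 and -1.25. Of 17 measured AP-1 and immediate early genes, 8 were higher and 0 lower: Ier3 differed by 4.24 and Batf by 3.16, while Fos, Jun and Atf3 were within 0.63.

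**Figure D3:**
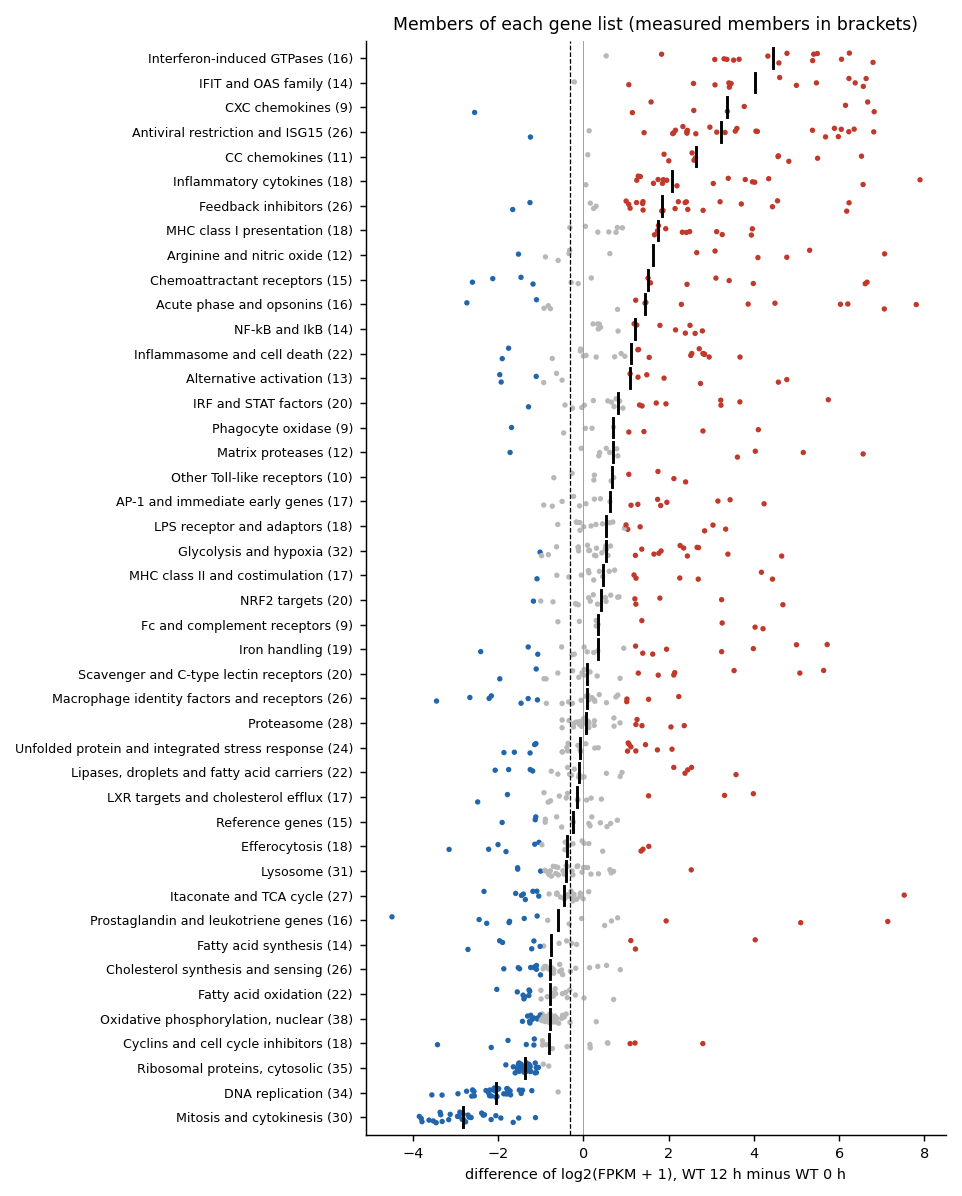
Difference of log2(FPKM + 1), WT 12 h minus WT 0 h, for each measured member (points) of the 44 gene lists, which are ordered by their median (black bars). Red points are at least 2-fold higher, blue points at least 2-fold lower and grey points under 2-fold; the dashed line is the median of all described genes, -0.31, and the thin line is 0. Interferon-induced GTPases stand at the top with a median of 4.46 and mitosis genes at the bottom with -2.83.

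Saa3 headed a group of secreted acute-phase proteins, complement components and coagulation factors, of whose 16 measured members 10 were higher and 2 lower. Cfb, complement factor B, stood at 502 FPKM at 12 h and 2.77 FPKM at 0 h, C3 at 150 and 9.36 FPKM, and Thbs1 (thrombospondin 1) at 366 and 4.62 FPKM. Of the C1q genes of the classical pathway, C1qa differed by -1.1, and C1qb and C1qc stood at -0.77 and -0.92. Plau (urokinase) was lower, at 17.4 FPKM at 12 h and 121 FPKM at 0 h, while its receptor gene Plaur was higher, at 110 and 39.0 FPKM. Of 12 measured matrix proteases and inhibitors, 4 were higher and 1 lower. Mmp13 and Mmp14 had 433 and 426 FPKM at 12 h against 3.59 and 10.9 FPKM at 0 h, the inhibitor Timp1 differed by 3.61, and Timp2 by -1.72.

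Enzymes of both routes that use arginine were higher. Beside Nos2, Arg1, the arginase linked to alternative activation, had 40.2 FPKM at 12 h and 0.51 FPKM at 0 h, and the mitochondrial Arg2 had 8.96 and 0.17 FPKM. The arginine transporter Slc7a2 differed by 5.31, Ass1, which regenerates arginine from citrulline, by 4.10, and Gch1, which makes the cofactor of Nos2, by 2.66. Of the 12 genes, 6 were higher and 1, the cofactor enzyme Spr, was lower. Of 9 genes of the phagocyte oxidase and superoxide dismutases, 4 were higher and 1 lower. The catalytic subunit Cybb stood at 796 FPKM at 12 h and 113 FPKM at 0 h. Its partner Cyba and the cytosolic subunits Ncf1 and Ncf4 were under 2-fold, from -0.46 to 0.71. The mitochondrial dismutase Sod2 differed by 4.10 and the cytosolic Sod1 by -1.68 (238 and 765 FPKM).

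In iron handling, 8 of 19 measured genes were higher and 3 lower, or 9 and 1 after median-of-ratios scaling. Lcn2, which captures bacterial siderophores, stood at 444 FPKM at 12 h and 7.45 FPKM at 0 h. Hmox1, which breaks down heme, had 1326 and 139 FPKM, and Hp (haptoglobin) 75.8 and 1.40 FPKM. The importers Slc11a2 and Slc11a1 differed by 1.95 and 1.39, and the exporter Slc40a1 (ferroportin) by -0.21. Steap3, a ferrireductase, was lower at 6.83 FPKM at 12 h and 40.5 FPKM at 0 h. Hmox1 is also a target of NRF2, the oxidant-responsive factor; 5 of 20 measured NRF2 targets were higher and 1 lower, led by the cystine transporter Slc7a11 at 50.3 and 1.0 FPKM.

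Of 22 measured inflammasome and cell death genes, 11 were higher and 2 lower (median 1.13). Nlrp3 stood at 54.5 FPKM at 12 h and 6.18 FPKM at 0 h, and Casp4, the caspase that senses cytosolic LPS, at 53.7 and 6.67 FPKM. Casp1 and its pore-forming substrate Gsdmd differed by 1.55 and 1.3. The adaptor Pycard (ASC) stood at 20.7 and 35.0 FPKM, a difference of -0.73. Mlkl, the effector of necroptosis, and Cflar, an inhibitor of caspase 8, differed by 2.84 and 2.72. Gsdme and Nlrp1b were lower, by -1.90 and -1.75. Bcl2a1a, Bcl2a1b and Bcl2a1d are near-identical copies whose reads cannot be told apart with certainty.

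Of 16 measured eicosanoid genes, 3 were higher and 7 lower. Ptgs2, the inducible cyclooxygenase, stood at 42.5 FPKM at 12 h and 0.27 FPKM at 0 h, and Ptges, a prostaglandin E synthase that acts after it, differed by 7.14, while the other synthases of the same step, Ptges2 and Ptges3, differed by -0.04 and -0.33. Hpgd, which inactivates prostaglandins, was the gene with the lowest difference of all ranked genes, -4.49, at 0.39 FPKM at 12 h and 30.1 FPKM at 0 h (chr8:56294552-56321046). The constitutive cyclooxygenase Ptgs1 and the prostaglandin D synthase Hpgds differed by -1.73 and -1.38. On the leukotriene side Alox5 (0.10 and 4.98 FPKM), its activating protein Alox5ap (137 and 460 FPKM), Ltc4s and Lta4h were all lower, by -2.44 to -1.08.

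Lipid metabolism held genes on both sides. Of 26 measured genes of cholesterol synthesis and sensing, 0 were higher and 9 lower, with a median of -0.78. Dhcr7, a late reductase of the pathway, differed by -1.86 and Fdps by -1.49 (45.8 FPKM at 12 h and 131 FPKM at 0 h). After median-of-ratios scaling, 3 of the 26 were lower and 1 higher. Over all 11048 genes that reached 1 FPKM with that scaling, 1275 were lower and 1478 higher. In fatty acid synthesis, 3 of 14 measured genes were higher and 6 lower. The 3 were the acyl-CoA synthetases Acsl1, Acsl4 and Acsl5, with Acsl1 at 239 FPKM at 12 h and 13.7 FPKM at 0 h, while another, Acsl3, was lower by -1.21. The desaturases Fads1 and Fads2 differed by -1.89 and -2.70, and Fasn by -1.16. After median-of-ratios scaling 3 of the 14 were lower, and with the trend over transcript length removed 1 was higher.

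Of 17 measured LXR targets and efflux genes, 3 were higher and 2 lower. Abca1, the cholesterol exporter, had 38.2 FPKM at 12 h and 1.47 FPKM at 0 h, but the related exporter Abcg1 had 5.62 and 10.3 FPKM. Ch25h, cholesterol 25-hydroxylase, had 12.0 and 0.31 FPKM. Cyp27a1, which makes another oxysterol, and the lysosomal acid lipase gene Lipa were lower, by -2.48 and -1.78. Among 22 measured lipases, droplet proteins and fatty acid carriers, 5 were higher and 4 lower, or 7 and 2 after median-of-ratios scaling. Lipg (endothelial lipase) was at 11.1 and 0.01 FPKM, whereas Lpl, lipoprotein lipase, was at 124 FPKM at 12 h and 524 FPKM at 0 h. Fabp3 differed by 2.38, but Fabp5 and Fabp4 by -1.24 and -1.19. Cd36, which takes up fatty acids, and the droplet protein Plin2 differed by -0.03 and -0.10. The medians of both groups, -0.14 and -0.10, changed sign with rescaling.

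Energy metabolism was divided too. Of 32 measured genes of glycolysis and hypoxia, 12 were higher and 1 lower (median 0.53). Of the higher genes, the glucose transporters Slc2a6 and Slc2a1 differed by 3.39 and 2.67, hexokinase 2 (Hk2) by 1.77, the regulatory enzyme Pfkfb3 by 4.65 (147 FPKM at 12 h and 4.89 FPKM at 0 h) and the lactate exporter Slc16a3 by 2.44. The 1 lower gene was another glucose transporter, Slc2a3, at -1.01 (-0.76 after median-of-ratios scaling). Of the phosphofructokinase genes Pfkl was higher, by 1.66, whereas Pfkm and Pfkp differed by -0.82 and -0.11, and Pfkfb4, related to Pfkfb3, by -0.12. Hif1a, the hypoxia-inducible factor, had 76.9 and 14.3 FPKM. The abundant enzymes of the lower pathway, Gapdh, Pgk1, Eno1, Pkm and Ldha, were between 0.13 and 0.64. Among genes of itaconate and the TCA cycle, Acod1 was the 1 higher gene of 27 and 8 were lower, with a median of -0.45; after median-of-ratios scaling 5 were lower and the median was -0.14. Idh2 was at 10.7 FPKM at 12 h and 58.0 FPKM at 0 h, Fh1 at 13.0 and 41.0 FPKM, and Mdh1 at 40.5 and 112 FPKM. The pyruvate dehydrogenase gene Pdha1 differed by -0.29, and all 4 succinate dehydrogenase genes were between -0.80 and -0.37.

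Of 38 nuclear genes of oxidative phosphorylation, 0 were higher and 10 lower, with a median of -0.79. Of the 10, 9 encode subunits of complex I, with Ndufb10 at 35.0 FPKM at 12 h and 95.8 FPKM at 0 h, and the other, Ndufa4, encodes a subunit of cytochrome c oxidase. With the trend over transcript length removed 0 of the 38 were lower and the median was -0.35, and after median-of-ratios scaling 1 was lower. In fatty acid oxidation 0 of 22 measured genes were higher and 8 lower, with Hadh (-2.03) and Etfb (-1.55) the lowest, while Cpt1a, the entry step, was at 28.4 and 35.6 FPKM. After median-of-ratios scaling 1 of the 22 was higher and 5 were lower.

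The difference depended on transcript length. Over 11092 genes with a length (99.7%), Spearman's rho between difference and length was 0.28, as a description across genes that share the same libraries. The median was -0.79 for transcripts under 1000 nt, -0.55 from 1000 to 2000 nt, -0.29 from 2000 to 4000 nt, -0.04 from 4000 to 8000 nt and 0.21 above 8000 nt. Cytosolic ribosomal proteins, which have short transcripts, were lower in 33 of 35 cases and higher in 0, with a median of -1.37. They took 6.0% of all FPKM at 12 h and 13.3% at 0 h. Rps2 stood at 558 FPKM at 12 h and 1586 FPKM at 0 h, and Rpl3 at 277 and 792 FPKM. With the length trend removed, 9 of the 35 were lower and the median was -0.83. After median-of-ratios scaling 22 were lower, with a median of -1.06. The part of transcript length in these counts was not tested further. In the libraries labelled KO, 3 of the 35 were lower at 12 h. Their median there was -0.80, against -0.38 over all genes measured in that pair. Of 15 genes often used as references, 0 were higher and 3 lower, or 1 and 1 after median-of-ratios scaling: Hprt stood at 37.8 FPKM at 12 h and 144 FPKM at 0 h, and Actb and Gapdh differed by 0.40 and 0.13.

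For antigen presentation, 11 of 18 measured class I genes were higher and 0 lower (median 1.75). Tap1 stood at 179 FPKM at 12 h and 30.9 FPKM at 0 h, Tapbp (tapasin) at 643 and 128 FPKM, and the non-classical H2-T22 at 327 and 36.5 FPKM, whereas the classical H2-K1 and H2-D1 differed by 0.92 and 0.34. H2 genes are close copies of each other, so their counts are uncertain. Of 28 measured proteasome genes 5 were higher and 0 lower, or 8 and 0 after median-of-ratios scaling. The 5 were the immunoproteasome subunits Psmb8, Psmb9 and Psmb10 and the activator subunits Psme1 and Psme2, by 1.23 to 2.37. The constitutive subunits that they replace, Psmb5, Psmb6 and Psmb7, were between -0.09 and 0.25. In class II and costimulation, 6 of 17 measured genes were higher and 1 lower: Cd40 was at 82.4 FPKM at 12 h and 3.61 FPKM at 0 h and Cd86 at 23.6 and 2.80 FPKM, while H2-Aa, H2-Eb1 and the invariant chain Cd74 were between 0.12 and 0.25.

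Of 9 measured Fc and complement receptor genes 4 were higher and 0 lower, and of 20 scavenger and C-type lectin receptors 7 were higher and 2 lower. Fcgr2b, the inhibitory Fc receptor, stood at 463 FPKM at 12 h and 24.0 FPKM at 0 h, Fcgr4 at 241 and 13.8 FPKM and Fcgr1 at 461 and 47.3 FPKM. Clec4e (Mincle), a lectin that binds mycobacterial glycolipid, was at 914 and 17.4 FPKM, and the scavenger receptors Marco and Msr1 were at 69.95 and 515 FPKM at 12 h against 1.1 and 117 FPKM at 0 h. Genes of efferocytosis, the uptake of dead cells, were higher in 3 and lower in 6 of 18 measured cases. After median-of-ratios scaling 3 were higher and 4 lower. Gas6, which bridges dead cells to TAM receptors, was at 13.9 FPKM at 12 h and 131 FPKM at 0 h and Itgb5 at 38.3 and 182 FPKM, while the receptor Axl was at 66.3 and 25.3 FPKM and Mertk differed by 0.13. Trem2, a lipid receptor, was at 262 FPKM at 12 h and 997 FPKM at 0 h, and the mannose receptor Mrc1 differed by -1.1. Both also stand in a list of alternative activation, of whose 13 measured members 7 were higher and 3 lower: beside Arg1, the interleukin 4 receptor gene Il4ra was at 111 FPKM at 12 h and 15.6 FPKM at 0 h, whereas the lectin Clec10a was at 0.33 and 4.17 FPKM. Of 31 lysosomal genes, 1 was higher and 3 lower, or 2 and 2 after median-of-ratios scaling: Ctsc differed by 2.53, the transcription factor Tfeb by -1.54, and Ctsd, the most abundant at 3840 and 7683 FPKM, by -1.0.

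Transcription factors and receptors of macrophage identity were higher in 4, lower in 7 and under 2-fold in 15 of 26 cases. After median-of-ratios scaling 6 were higher and 6 lower. Spi1 (PU.1) stood at 373 FPKM at 12 h and 311 FPKM at 0 h. The CEBP family split: Cebpb was at 212 and 44.1 FPKM and Cebpa at 23.3 and 153 FPKM. Pparg, the lipid-activated nuclear receptor, had the lowest difference of the list, -3.44, at 0.90 FPKM at 12 h and 19.6 FPKM at 0 h. Id3, an inhibitor of helix-loop-helix factors, was at 38.0 and 179 FPKM. Of 24 stress response genes (unfolded proteins and amino acid supply), 8 were higher and 5 lower, and after median-of-ratios scaling 2 were lower. Atf4, the factor of that response, was at 177 FPKM at 12 h and 74.7 FPKM at 0 h and its partner Ddit3 (CHOP) differed by 1.12, but the serine pathway genes Phgdh, Psat1, Psph and Shmt2 were lower, by -1.86 to -1.14; Psat1 and Psph stood at -0.84 and -0.97 after that scaling. The chaperone genes Hspa5 and Hsp90b1 were within 0.27.

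The lowest group was that of cell division. All 30 genes of mitosis and cytokinesis were lower, with a median of -2.83, and 33 of 34 genes of DNA replication were lower, with a median of -2.05; with median-of-ratios scaling these counts were 29 and 32. The mitotic cyclin Ccnb2 stood at 3.44 FPKM at 12 h and 62.8 FPKM at 0 h (-3.85), the survivin gene Birc5 at 7.65 and 119 FPKM, and Cdc20, an activator of the anaphase-promoting complex, at 1.97 and 39.9 FPKM. The proliferation marker Mki67 differed by -1.51. In replication, the ribonucleotide reductase subunit Rrm2 differed by -3.55 (7.14 and 94.4 FPKM), thymidine kinase Tk1 by -3.31, and the 6 subunits of the MCM helicase by -2.74 to -1.72. E2f1 was the gene of that list under 2-fold, at 29.5 FPKM at 12 h and 45.0 FPKM at 0 h. Of 18 measured cyclins, kinases and inhibitors, 3 were higher and 6 lower, or 3 and 4 after median-of-ratios scaling. Ccnd2 and Ccnd3 differed by 2.80 and 1.21 and Ccnd1 by -2.16, while the inhibitor genes Cdkn1a and Cdkn2c differed by 0.58 and -3.42. The windows of mitosis genes held a pair of elements known from cell cycle promoters, which were chosen for the search after the data had been seen. The cell cycle homology element, searched as TTTGAA on either strand, was in 20 of 25 windows (80%) of the mitosis list and in 3 of 33 (9.09%) of the replication list. It was in 17% of windows of lower genes and in 26.3% of those of genes with a difference of -2 or less. Windows of genes under 2-fold held it in 11.3% of cases, and all windows in 17.9%. The CCAAT box, searched as CCAAT on either strand, was in 21 of 25 windows (84%) of the mitosis list and in 18 of 33 (54.5%) of the replication list. It was in 43.5% of windows of lower genes and in 52.5% of those of genes with a difference of -2 or less. Windows of genes under 2-fold and all windows held it in 37.4% of cases each. Some lists that were higher held these elements too. TTTGAA was in 3 of 7 windows (42.9%) of CC chemokines and 4 of 11 (36.4%) of the GTPase list, but in 0 of 6 of CXC chemokines. CCAAT was in 9 of 15 windows (60%) of the IFIT and OAS list, but in 0 of 7 of CC chemokines. The windows of Ccnb2 (chr9:70421505-70421804, minus strand) and Cdc20 (chr4:118437294-118437593, minus strand), among the lowest mitosis genes, are shown 5′ to 3′ on the gene's strand. Capitals mark TTTGAA and CCAAT. In Ccnb2 the 3 CCAAT boxes begin 87, 54 and 21 bases before the start, 33 bases apart.
Ccnb2: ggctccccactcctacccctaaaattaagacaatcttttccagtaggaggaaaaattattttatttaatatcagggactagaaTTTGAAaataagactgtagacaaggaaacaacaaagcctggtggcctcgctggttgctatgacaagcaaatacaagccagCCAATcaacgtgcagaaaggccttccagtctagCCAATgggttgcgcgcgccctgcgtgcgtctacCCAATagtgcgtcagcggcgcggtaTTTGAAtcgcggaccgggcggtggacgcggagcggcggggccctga
Cdc20: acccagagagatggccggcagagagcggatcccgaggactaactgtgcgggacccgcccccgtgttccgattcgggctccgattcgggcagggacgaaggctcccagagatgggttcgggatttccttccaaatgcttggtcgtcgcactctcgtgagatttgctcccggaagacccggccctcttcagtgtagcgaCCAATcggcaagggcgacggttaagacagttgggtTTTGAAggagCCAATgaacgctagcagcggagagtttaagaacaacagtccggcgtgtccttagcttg

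**Figure D4:**
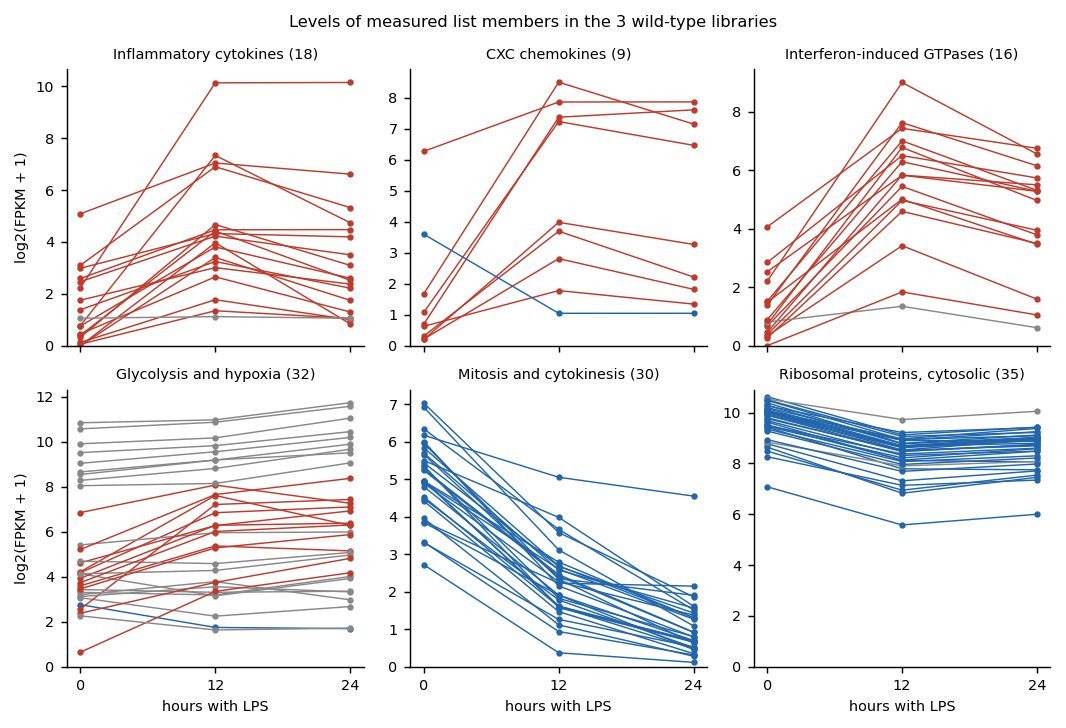
Level, as log2(FPKM + 1), at 0, 12 and 24 h with LPS in the 3 WT libraries, for every measured member (1 line each) of 6 gene lists. Red lines are genes at least 2-fold higher at 12 h than at 0 h, blue lines at least 2-fold lower and grey lines under 2-fold. The 16 interferon-induced GTPases stand highest at 12 h, while the 30 mitosis genes are lower at 12 h and lower still at 24 h, as with Ccnb2 at 62.8, 3.44 and 0.73 FPKM.

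The 24 h library showed where the 12 h level stood in time. Levels are given in the order 0, 12 and 24 h. Saa3 had 75.3, 17094 and 49931 FPKM and Hmox1 139, 1326 and 2643 FPKM, so these were higher still at 24 h. Il1b (3.72, 1123 and 1133 FPKM), Ccl5 (47.5, 4462 and 4574 FPKM), Irf7 (18.7, 1054 and 1067 FPKM) and Nos2 (0.50, 200 and 185 FPKM) were about level between 12 and 24 h. Mmp13 (3.59, 433 and 21.99 FPKM), Il1rn (17.7, 1351 and 175 FPKM), Il1a (0.71, 160 and 25.7 FPKM) and Gbp2 (3.61, 510 and 93.0 FPKM) were highest of the 3 at 12 h. Of genes lower at 12 h, Hpgd (30.1, 0.39 and 0.08 FPKM) and Stmn1 (556, 45.2 and 9.71 FPKM) were lower again at 24 h, whereas Ftl1 (15663, 7475 and 14723 FPKM) and Fabp5 (922, 389 and 885 FPKM) were close to the 0 h level.

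Some genes that lie side by side differed in the same direction. Where at least 4 consecutive measured genes were all higher or all lower was listed, a rule chosen after the data were seen. There were 22 such runs of higher genes and 24 of lower genes. More genes were lower (18.1%) than higher (10%), and the number of runs that these shares alone would give was not counted. The counts of runs therefore cannot be compared with each other. The longest, of higher genes, held 10 genes of the PYHIN family and its neighbours, among them Ifi203, Ifi204, Ifi205 and Mnda, over 510.4 kb (chr1:173521311-174031755), with differences of 1.76 to 6.61. A run of 9 held the Schlafen genes (chr11:82951349-83215154), a run of 6 the Oas genes (chr5:120730333-120907544), a run of 5 the Ifit genes (chr19:34550550-34662981) and a run of 4 Gbp5, Gbp7, Gbp3 and Gbp2 (chr3:142496934-142638008). The 4 chemokine genes Ccl2, Ccl7, Ccl12 and Ccl8 (chr11:82035577-82116799) and the presentation genes Psmb9, Tap1, Psmb8 and Tap2 (chr17:34182030-34216321) formed others. The longest run of lower genes held 5. Neighbouring copies of 1 family can share reads.

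The same comparison in the libraries labelled Setd2 KO, which share no library with the WT pair, is given beside it as a description. Setd2 itself had 8.68 FPKM at 12 h and 7.83 FPKM at 0 h in WT and 9.16 and 9.96 FPKM in the libraries labelled KO. A level summed over the gene does not check a deletion whose place the labels do not give. Lyz2, one of the macrophage markers above, was at 36.0 FPKM at 12 h and 17.7 FPKM at 0 h in the libraries labelled KO. In the KO pair 996 of 11200 measured genes (8.89%) were higher and 2020 (18%) lower, with a median of -0.38. Of the genes higher in WT, 796 were higher in the KO pair as well, which is 71.5% of the WT genes and 79.9% of the KO genes; 1320 were lower in both, 65.6% and 65.3%. By sign alone, 1056 of the 1113 and 1964 of the 2011 went the same way in the KO pair. The share of each sign over all measured genes was not counted. With a KO median of -0.38 a negative sign was common among all genes, so these sign counts alone do not measure agreement. Across 10897 genes measured in both pairs, Pearson's r of the differences was 0.90 and Spearman's rho 0.84.

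List medians of the WT pair and the KO pair were 4.46 and 3.99 for interferon-induced GTPases, 4.04 and 1.77 for IFIT and OAS genes, 3.23 and 2.02 for antiviral restriction and ISG15, 2.08 and 2.19 for cytokines, and -2.83 and -3.16 for mitosis genes. Each median was taken over the members measured in that pair, which were not always the same. In WT these were 14 IFIT and OAS genes and 18 cytokines, and in the KO pair 15 and 20. Of the 15 IFIT and OAS genes 14 were higher in the KO pair. The following genes were chosen after their values were seen. Ccl7 differed by 5.49 in WT and 2.11 in the KO pair, Ccl2 by 4.57 and 1.88, Irf7 by 5.75 and 2.80, Oasl2 by 4.60 and 1.74, and Ifit3 by 6.38 and 3.53. At 12 h these genes were at higher FPKM in the library labelled KO than in WT, and at 0 h the gap was wider as a ratio: Ccl7 had 360 FPKM at 12 h and 82.5 FPKM at 0 h in the libraries labelled KO, Ccl2 had 1041 and 282 FPKM, Irf7 1073 and 153 FPKM, and Ifit3 495 and 42.05 FPKM. With 1 library in each group, no test of these differences was possible.

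**Figure D5:**
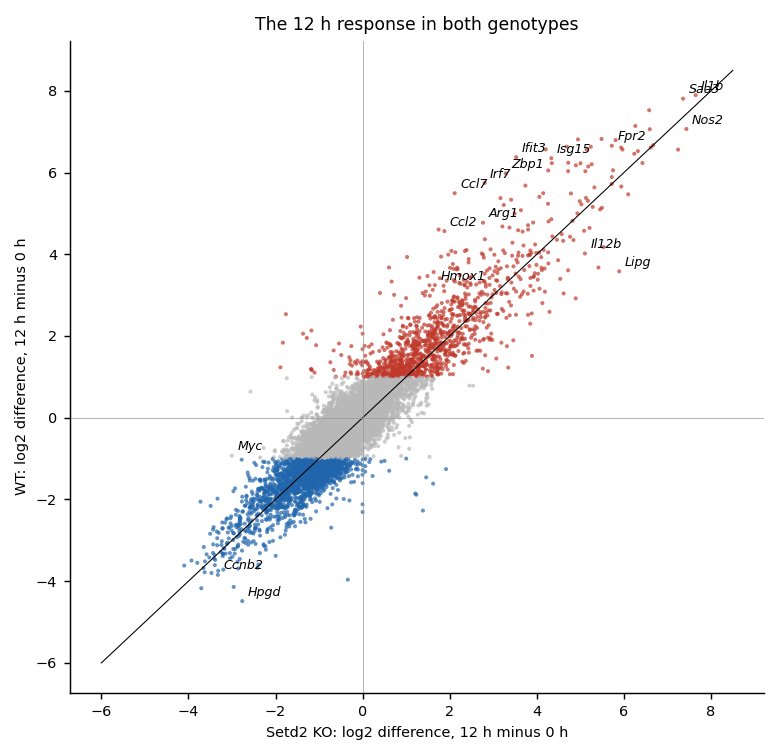
Difference of log2(FPKM + 1), 12 h minus 0 h, in WT (vertical axis) and in the libraries labelled Setd2 KO (horizontal axis), for 10897 genes measured in both pairs. The line marks equal differences; red points are at least 2-fold higher in WT, blue points at least 2-fold lower and grey points the rest. Most points run along the line (Pearson's r 0.90), and Ccl7, Ccl2, Irf7 and Ifit3 lie above it.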

How the data were processed

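RNA of 6 mouse macrophage libraries (1 per genotype and time) was measured by RNA sequencing. The deposited table holds FPKM values that the authors computed, per the file headers, with 2 decimals; Bowtie2, RSEM and the build GRCm38 are named in the submitters' processing notes, with versions not given in the sources used here. Groups came from the sample titles. Of 17905 rows, 1 names no gene and was left out, and 25 symbols stored as dates were replaced by the symbol of their gene ID. In the library KO at 0 h, 2 cells held no number; the WT columns held 0 such cells.

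Genes with at least 1 FPKM in either WT library were compared as a difference of log2(FPKM + 1), with a call at 1 or more in size. With 1 library per group no test was possible. Named genes were the 20 highest and 20 lowest differences among genes at 10 FPKM or more, the 10 most abundant at each time, the 10 largest FPKM gains and losses, and members of 44 pathway and 10 marker lists. The lists hold 949 genes: 862 were measured, 80 were under 1 FPKM in both WT libraries and 7 had no row. The comparison, the members and the lists were chosen with earlier results of these data known. A rescaling to the same total, the TTTGAA and CCAAT motifs and the runs of neighbouring genes were added after the data were seen.

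The FPKM of genes with few reads move in steps of 1 read, which gave an estimate of depth for reads of 50 nt (an assumed length); it lay between 21650000 and 22370000 reads, and such numbers bound counting error only. Transcript lengths came from the annotation. Promoter windows came from RefSeq tables of GRCm38.p6. The other settings were pseudocounts of 0.1 and 5, no minimum or 5 FPKM, call rules of 1.5-fold and 3-fold, median-of-ratios and trimmed-mean scaling, and removal of a lowess trend (span 0.3) over transcript length. Scripts were tested on simulated data. Python 3.11.15, pandas 2.3.3, numpy 2.4.6, scipy 1.17.1, statsmodels 0.14.6 and matplotlib 3.10.9 were used. Some members of the gene lists are counted in them but not reported here by name.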

Additional observations from a re-analysis of the deposited data

How the results depend on the processing

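The counts of higher and lower genes were 1302 and 2580 with a pseudocount of 0.1, and 708 and 1042 with a pseudocount of 5. They were 1771 and 3923 at 1.5-fold, and 653 and 719 at 3-fold, against 1113 and 2011 as reported. Median-of-ratios scaling gave 1275 lower genes and trimmed-mean scaling 1245, and higher genes made up 53.7% and 54.8% of called genes, against 35.6% as reported, 44.3% with the same total and 38.1% with the length trend removed. In each of these settings 0 genes were called in the opposite direction. This count is no check of direction, because a pseudocount or call rule cannot reverse the sign of a difference. Median-of-ratios and trimmed-mean scaling moved the median of all genes only from -0.31 to -0.03 and -0.01. Of 885 listed or ranked genes, 65 passed under 2-fold with median-of-ratios scaling and 70 with the length trend removed, where ribosomal proteins and oxidative phosphorylation had medians of -0.83 and -0.35. The medians of the LXR, lipase, stress response and reference gene lists changed sign with scaling. No paired analysis was possible because the groups have 1 library each. Sizes here carry no replicate error, and differences in culture, animal or run cannot be told apart from the effect of LPS.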

Other observations

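Among the genes called, 112 of the 1113 higher and 150 of the 2011 lower genes were predicted genes, clone names or small RNA genes. Their share among all described genes was not counted, so these counts cannot be read as more or fewer than the background. Between the WT pair and the pair labelled KO, 11 genes were higher in WT and lower in KO, and 7 were lower in WT and higher in KO. Each of them was a small RNA or predicted gene, and each was listed at 0 in at least 1 of the 4 libraries. The share of genes called was larger at higher levels: among genes whose larger value was 1 to 5 FPKM, 7.2% were higher and 13.6% lower, and among those at 100 FPKM or more, 22% were higher and 25.4% lower. The log2(FPKM + 1) scale shrinks differences of weakly expressed genes, so the rule itself calls them less often. How much of the trend this makes up was not tested.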
